A study of Mus musculus with 15 samples.

Results

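Mitochondrial fatty acid oxidation breaks long-chain fatty acids down to acetyl-CoA inside mitochondria. The 9 genes described here encode its core machinery: the carnitine shuttle that carries acyl groups across the mitochondrial membranes (Cpt1a, Slc25a20, Cpt2), the acyl-CoA dehydrogenases that open each round (Acadvl, Acadl, Acadm), the trifunctional protein that carries out the later steps on long chains (Hadha, Hadhb), and the thiolase Acaa2. They were chosen by gene symbol, and all 9 were found among the 17594 genes of the deposited table. All 9 also passed the filter on low values that 11314 genes passed (a normalized count of at least 10 in at least 3 libraries), and each of them reached 10 in all 15 libraries.

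The 15 RNA-seq libraries came from 2 kinds of CD4 T cell isolated by cell sorting from the spleens of C57BL/6 mice: regulatory T cells (Treg), which carry the transcription factor Foxp3 and restrain other immune cells, and conventional CD4 T cells (Tconv). Treg KO (4 libraries) and Tconv KO (4 libraries) came from animals with a conditional Hpgd allele crossed to Foxp3-Cre-YFP. That driver makes Cre in cells that express Foxp3, so Tconv KO are cells in which it is normally silent. Treg WT (4 libraries) and Tconv WT (3 libraries) came from control animals whose genotype is labelled wild-type. The labels name no Cre driver for the controls and give no age, treatment or shared animal for any sample, so replicates may or may not be separate animals and p-values measure only the spread between these samples. Hpgd encodes hydroxyprostaglandin dehydrogenase, which inactivates prostaglandin E2.

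In T cells, fatty acid oxidation is one of the ways in which mitochondria are fed, and Treg have been described as drawing on it more than dividing effector T cells, which depend more on glycolysis. Cpt1a, on the outer membrane, commits long-chain acyl groups to entry and is held back by malonyl-CoA. Slc25a20 is the carrier of the inner membrane, and Cpt2 restores acyl-CoA on its inner side. Acadvl acts on very long, Acadl on long and Acadm on medium chains. The trifunctional protein is built from 2 kinds of subunit: Hadha carries the hydratase and hydroxyacyl-CoA dehydrogenase activities, and Hadhb carries the thiolase that releases acetyl-CoA. Acaa2 is a second mitochondrial thiolase.

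Libraries held between 2.64 and 11.1 mega-reads assigned to genes, with group means of 3.89 mega-reads in Treg KO, 8.35 in Treg WT, 5.40 in Tconv KO and 8.77 in Tconv WT. Foxp3 averaged 4046 ± 541 normalized read counts in Treg KO and 4502 ± 369 in Treg WT (SD, n = 4 each), against 40.8 ± 22.5 in Tconv KO (n = 4) and 17.1 ± 3.14 in Tconv WT (n = 3), so the sorted cell types matched their labels. The targeted gene could not check the genotype labels, since Hpgd had 0 reads in the 8 KO libraries and 1 read in the 7 WT libraries together. All 8 KO libraries carried Xist and 0 reads of the Y-linked gene Ddx3y, while all 7 WT libraries carried Ddx3y, and sample numbers ran from 574 to 581 in KO and from 483 to 490 in WT. Genotype, sex and any difference of handling between those 2 blocks of numbers therefore cannot be told apart in any KO against WT value given here. Among the libraries of its group, 2 stood apart in their markers. Tconv KO replicate 1 had a summed count of 11346 for the 8 Treg markers (2960 to 5807 in the other 3 Tconv KO libraries, 4498 to 4969 in Tconv WT), and also the highest sums of its group for cell cycle genes (1897, beside 1161 to 1186), B cell markers (348, beside 67.2 to 153) and CD8 T and NK cell markers (1215, beside 662 to 853). Treg WT replicate 4 had 1137 for cell cycle genes, beside 651 to 668 in the other 3 Treg WT libraries, and 246 for B cell markers, beside 161 to 186.

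Hadha and Hadhb lie head to head on mouse chromosome 5 and are transcribed away from each other. Hadha spans 30118304 to 30155162 on the minus strand and Hadhb spans 30155248 to 30184593 on the plus strand (GENCODE vM21, GRCm38, the assembly also called mm10). The strip between the 2 annotated starts is shown because the 2 genes it separates encode the 2 subunits of 1 enzyme and only 1 of them was called in the comparisons that follow. It covers 85 bases (chr5:30155163-30155247, plus strand, read from the GRCm38.p6 genome), with 69.4% G and C, and capitals mark the GC box GGGCGG:
Hadha-Hadhb strip: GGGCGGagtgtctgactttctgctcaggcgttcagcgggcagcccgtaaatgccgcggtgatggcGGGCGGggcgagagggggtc
The box, searched on both strands, occurs at positions 1 and 66 of the strip, counted from its 5′ end. It is a common element: 35.7% of 32851 RefSeq promoters of GRCm38.p6, each from 250 bases before to 50 after the start, hold it, and so do 6 of the 8 members for which a promoter was read (Acaa2 was not read). The single element AGGTCA of nuclear receptors was found in 3 of these 8 (Cpt1a, Acadvl and Acadm) and in 16.3% of all promoters, with no overlap with a GC box. The element TNAAGGTCA of estrogen-related receptors, which contains it, was in 0 of the 8 and in 1.28% of all. The windows of Hadha and Hadhb, set by RefSeq starts at 30154980 and 30155253, share 228 bases. These starts are not the GENCODE starts given above. The GC box counted for Hadha is also counted for Hadhb. These matches describe letters and nothing more.

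Per kilobase of transcript, 8 of the 9 genes lay between 95.2 and 208 normalized read counts, and Cpt2 lay below them. Averaged over the 15 libraries, Acadvl had 208 counts per kb, Hadha 193, Acaa2 158, Cpt1a 154, Acadl 150, Hadhb 136, Acadm 119, Slc25a20 95.2 and Cpt2 35.1. Among neighbours in this order, Slc25a20 was above Cpt2 in 15 of 15 libraries, Acadvl above Hadha in 11, Hadha above Acaa2 in 12 and Acadm above Slc25a20 in 11. Acaa2 was above Cpt1a in 8 of 15, Cpt1a above Acadl in 8, Acadl above Hadhb in 8 and Hadhb above Acadm in 9, so these neighbours were not separated beyond their spread. The order of Hadhb and Acadm by mean differed between Treg KO and Treg WT, and so did the order of other pairs. The level of Hadhb per kb was 108 ± 3.41 in Treg KO, below Acadm at 118. In Treg WT it was 152 ± 3.45, where Acadm had 96.3 (SD, n = 4 each). Acadvl stood at 208 and Hadha at 203 in Treg KO, against 196 and 200 in Treg WT. Slc25a20 had 106 in Treg KO, below Acadm, and 96.8 in Treg WT, just above it. Acadvl shares 1151 of its 2686 annotated exon bases with Dvl2 on the opposite strand, and whether reads were counted by strand is not stated in the labels, so its level is uncertain to that extent. Hadha shares 75 of 8730 exon bases with Garem2, and the other 7 share none with an annotated gene.

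**Figure D1:**
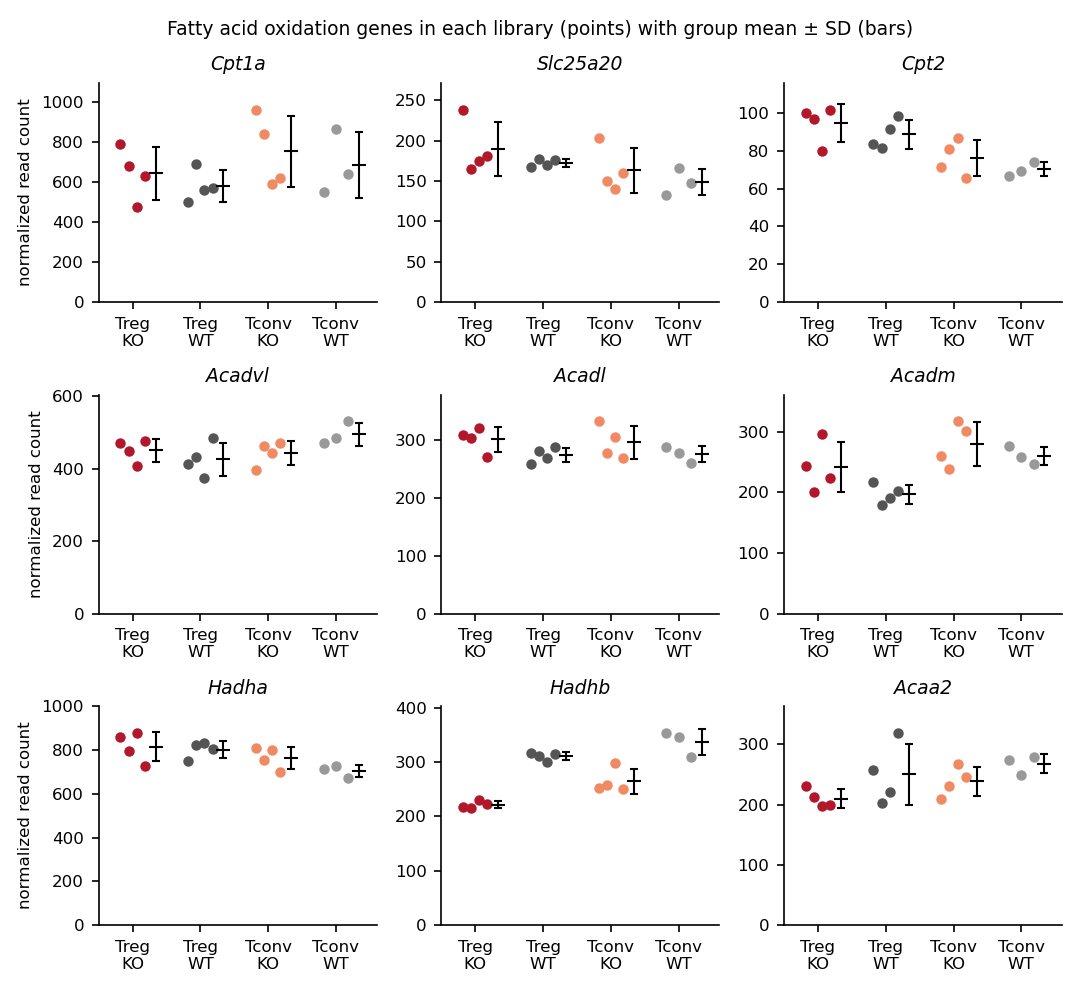
Normalized read counts (vertical axes, from 0) of the 9 genes in the 15 libraries, 1 panel per gene, with the groups Treg KO, Treg WT, Tconv KO and Tconv WT from left to right; points are libraries and bars are the group mean ± SD (n = 4, 4, 4 and 3). Hadhb is the gene whose 4 Treg KO points (215 to 231) lie tightly together and below the 4 Treg WT points (300.1 to 316), while Cpt1a scatters within every group.

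The first comparison asked which of these genes differ between Treg of the knockout and Treg of the control animals, at the level of adjusted p under 0.05 over all 11314 genes (limma, Benjamini-Hochberg). Hadhb, the thiolase subunit, was lower in Treg KO, and the other 8 genes did not pass. Of the 9 members 1 passed (11.1%), where 21.5% of all tested genes did, so the members' share was not above the background. The median log2 fold change of the 9 was 0.09, beside 0.00 over all tested genes, and the median absolute log2 fold change was 0.13, beside 0.23.

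Hadhb had 218, 215, 231 and 223 normalized read counts in the Treg KO libraries, against 316, 312, 300.1 and 314 in the Treg WT libraries. The groups did not overlap, and the highest Treg KO library stood well below the lowest Treg WT library. The mean of Hadhb was 222 ± 6.98 in Treg KO and 310.4 ± 7.06 in Treg WT (SD, n = 4 each), a fall of 28.5% (log2 fold change -0.48 ± 0.07 SE, 95% confidence interval -0.64 to -0.33, limma adjusted p = 0.00077). The call held in all 29 alternative ways of processing, with log2 fold changes from -0.65 to -0.42, among them -0.48 without Treg WT replicate 4 and -0.48 without Tconv KO replicate 1. In bulk RNA, less transcript per cell and fewer cells that carry it cannot be told apart.

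Hadha, whose product sits in the same complex, did not follow. It had 859, 798, 879 and 729 normalized read counts in Treg KO, against 748, 825, 832 and 806 in Treg WT, and the ranges overlapped. The log2 fold change of Hadha was 0.02 ± 0.07 (95% interval -0.13 to 0.17, limma adjusted p = 0.86), so a change of Hadha as large as that of Hadhb lies outside its interval. The ratio of the Hadhb count to the Hadha count, a description chosen after the values were seen, was 0.253, 0.269, 0.262 and 0.306 in the Treg KO libraries and 0.422, 0.378, 0.361 and 0.389 in the Treg WT libraries. Every Treg KO library had a lower ratio than every Treg WT library. Among the 9 genes Hadhb also had the smallest spread within groups (residual SD 0.08 on the log2 scale, against 0.14 for the median member and 0.19 for the median tested gene) and the largest range of group means (0.60, against 0.35 and 0.44).

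**Figure D2:**
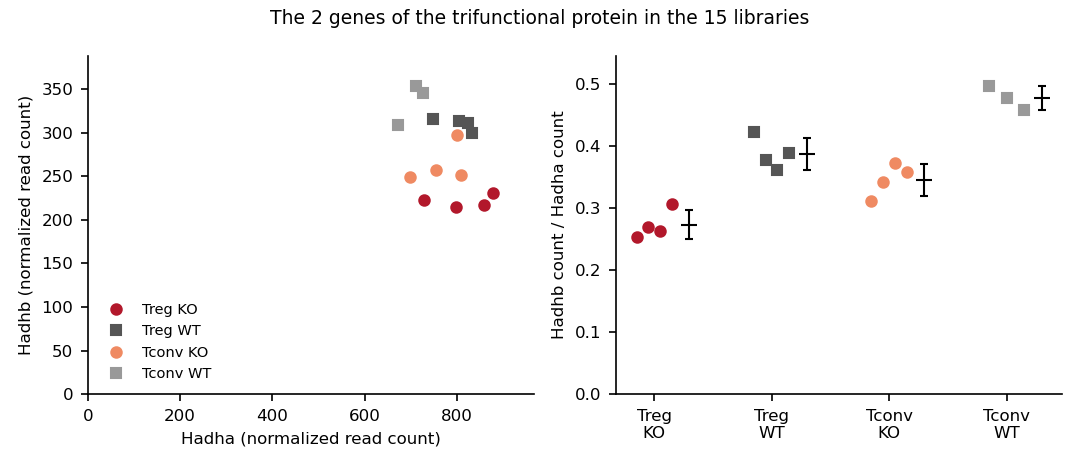
Left, Hadhb against Hadha, both as normalized read counts from 0, in the 15 libraries (circles KO, squares WT); right, the ratio of the 2 counts by group, with mean ± SD. Hadha levels span 673 to 879 in all groups together while Hadhb separates KO from WT, so the ratio averages 0.273 in Treg KO, 0.388 in Treg WT, 0.345 in Tconv KO and 0.477 in Tconv WT.

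The carnitine shuttle showed no called change in Treg KO. Cpt1a, its entry enzyme, averaged 644 ± 131 in Treg KO and 581 ± 79.0 in Treg WT (SD, n = 4 each), with a log2 fold change of 0.13 ± 0.18 (limma adjusted p = 0.63). The carrier Slc25a20 had 238, 165, 175 and 181 counts in Treg KO and 167, 177, 170 and 176 in Treg WT. Treg KO replicate 1 stood apart above the other libraries, and the log2 fold change of Slc25a20 was 0.12 ± 0.13 (limma adjusted p = 0.53), or 0.01 without that library. Cpt2, the inner enzyme, differed by 0.09 ± 0.12 (limma adjusted p = 0.63).

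The 3 acyl-CoA dehydrogenases had positive log2 fold changes in Treg KO, that of Acadl turning to -0.04 with the GC trend removed, and 0 of the 3 were called. Acadm, the medium-chain enzyme, had 244, 201, 297 and 225 normalized read counts in Treg KO and 217, 179, 191 and 202 in Treg WT, and the 2 ranges overlapped. Its log2 fold change was 0.28 ± 0.12 (95% interval 0.03 to 0.53, limma adjusted p = 0.10), and it moved with single libraries: it was 0.36 without Treg KO replicate 2 (limma adjusted p = 0.038) and 0.18 without Treg KO replicate 3 (limma adjusted p = 0.28). Acadl changed by 0.13 ± 0.08 (limma adjusted p = 0.26) and Acadvl by 0.09 ± 0.09 (limma adjusted p = 0.50). The thiolase Acaa2 averaged 210 ± 15.1 in Treg KO and 250.2 ± 51.4 in Treg WT, a log2 fold change of -0.23 ± 0.12 (limma adjusted p = 0.19). Treg WT replicate 4, which stood apart in its cell cycle genes, held the highest Acaa2 value of all 15 libraries, 319, and without it the log2 fold change was -0.11 (limma adjusted p = 0.52). The 95% intervals of 8 of the 9 genes lay within a 1.5-fold change in either direction, Hadhb being the exception.

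Other quantities moved with genotype in the same Treg libraries. The part of cell cycle genes and cell type markers in the Hadhb result was not tested, and GC content and depth entered only as alternative fits. Depth was 2.64 to 4.71 mega-reads in Treg KO and 6.43 to 10.0 in Treg WT, without overlap. All 10 cell cycle genes on the check list were detected, 9 rose in Treg KO, and their summed count was 2130 to 2570 in Treg KO against 651 to 1137 in Treg WT. The 8 B cell markers summed to 273 to 392 in Treg KO, with Pax5 at 0 reads, and to 161 to 246 in Treg WT. The 8 CD8 T and NK cell markers summed to 103 to 194 in Treg KO and 119 to 174 in Treg WT, with Ncr1 at 0 in both groups. Fold changes also followed GC content: in the fifth of genes with the least G and C in the transcript the median log2 fold change of Treg KO over Treg WT was 0.20, and in the fifth with the most it was -0.32. Hadhb has 45.4% G and C and Hadha 51.3%, and with the GC trend removed Hadhb fell by 0.65, further than without that step.

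In Tconv KO against Tconv WT the genes were compared in cells where the Foxp3 driver is normally silent. None of the 9 members passed, where 0.681% of all tested genes did (limma, adjusted p under 0.05). At an unadjusted p under 0.05 there was 1 member of 9 (11.1%), Hadhb, beside 1358 of the 11314 tested genes (12%). It had 252, 258, 298 and 249.5 normalized read counts in the Tconv KO libraries, against 353, 346 and 309 in the Tconv WT libraries.

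Those groups did not overlap, although Tconv KO replicate 3 and Tconv WT replicate 3 came close to each other. The log2 fold change of Hadhb in Tconv was -0.35 ± 0.08 (95% interval -0.52 to -0.18, limma adjusted p = 0.068). It passed in 4 of 14 other settings: edgeR (adjusted p = 0.047), DESeq2 (adjusted p = 0.0068), limma's library weights (0.022) and the GC trend removed (0.017). With 1 library left out it passed in 2 of 15 limma fits, without Tconv KO replicate 3 (0.023) and without Treg KO replicate 3 (0.032). In the rest it did not pass, with adjusted p up to 0.32 (limma, without Tconv WT replicate 1). Without Tconv KO replicate 1 it was -0.33 (limma adjusted p = 0.15). The test of the difference between the cell types, the interaction, gave -0.14 ± 0.11 for Hadhb (95% interval -0.37 to 0.09, limma adjusted p = 0.76), so the Treg value is not shown to be larger than the Tconv value. Hadhb over Hadha was 0.311, 0.341, 0.372 and 0.357 in Tconv KO and 0.496, 0.477 and 0.458 in Tconv WT, again without overlap. Cell cycle genes moved here too, 4 of 10 rising, with sums of 1161 to 1897 in Tconv KO against 595 to 692 in Tconv WT. Their part in the Hadhb value was not tested.

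For the remaining 8 genes, the log2 fold changes in Tconv ran from -0.17 (Acaa2) to 0.13 (Cpt1a), with limma adjusted p of 0.51 or more. Hadha changed by 0.12 ± 0.08 and Acadvl by -0.16 ± 0.09. All 9 intervals lay within a 1.5-fold change. Cpt1a had a mean of 754 ± 178 in Tconv KO (n = 4) against 686 ± 164 in Tconv WT (n = 3), and its log2 fold change of 0.13 ± 0.20 was 0.01 without Tconv KO replicate 1. For the interaction, 0 of 9 members and 0.15% of all genes passed in limma, and 0 members had an unadjusted p under 0.05 there. edgeR and DESeq2 also called 0 members in the interaction.

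**Figure D3:**
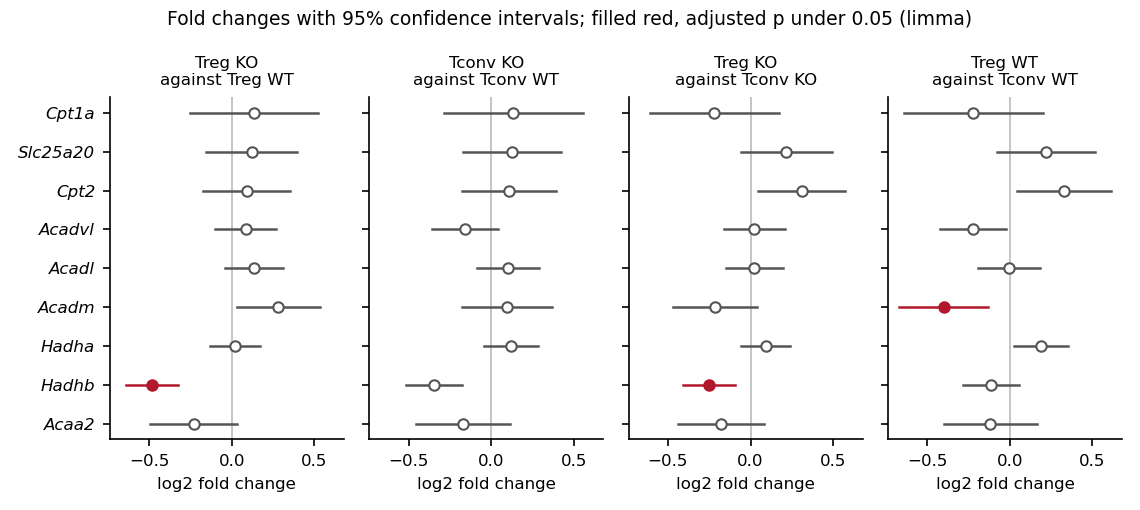
Log2 fold changes (horizontal axes) of the 9 genes in 4 comparisons, Treg KO against Treg WT, Tconv KO against Tconv WT, Treg KO against Tconv KO and Treg WT against Tconv WT, with 95% confidence intervals from limma; filled red points passed at adjusted p under 0.05. The 3 filled points are Hadhb at -0.48 and -0.25, and Acadm at -0.40.

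Treg and Tconv were then compared within each genotype. The 2 comparisons share no library with each other, but each shares a group with the KO against WT comparisons above, so their values are given side by side. In KO cells, 1 of the 9 genes passed, Hadhb, lower in Treg KO, where 31.4% of all tested genes passed. In WT cells, 1 passed, Acadm, lower in Treg WT, where 18.1% of all did. No member passed as higher in Treg in either genotype, and the median log2 fold change of the 9 was 0.02 in KO and -0.11 in WT, beside -0.01 and -0.02 over all genes. The 9 genes together made up 0.0555% ± 0.0035 of the normalized count in Treg KO, 0.0570% ± 0.0030 in Tconv KO, 0.0536% ± 0.0031 in Treg WT (SD, n = 4 each) and 0.0549% ± 0.0034 in Tconv WT (n = 3).

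Acadm in WT cells had 217, 179, 191 and 202 normalized read counts in Treg WT, against 277, 258 and 247 in Tconv WT. Every Treg WT library was below every Tconv WT library. The means were 197 ± 15.9 in Treg WT and 261 ± 15.1 in Tconv WT, a fall of 24.3% (log2 fold change -0.40 ± 0.13, 95% interval -0.67 to -0.13, limma adjusted p = 0.039). This call was marginal: it was lost with no filter (adjusted p = 0.051), with reads thinned to 1 depth (0.062), and when any 1 of 6 libraries was left out, Treg WT replicates 2, 3 or 4 or Tconv WT replicates 1, 2 or 3 (0.065 to 0.15), while the log2 fold change stayed between -0.48 and -0.36. In KO cells Acadm had 244, 201, 297 and 225 counts in Treg KO and 260.4, 239, 317 and 301 in Tconv KO, with overlap, and a log2 fold change of -0.21 ± 0.12 (limma adjusted p = 0.18). It passed there with the GC trend removed (adjusted p = 0.044) and without Treg KO replicate 3 (-0.32, adjusted p = 0.034), but was -0.13 without Treg KO replicate 2 (limma adjusted p = 0.42).

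In KO cells the mean of Hadhb was 222 ± 6.98 in Treg KO against 264 ± 22.6 in Tconv KO (SD, n = 4 each), and the highest Treg KO library, 231, was below the lowest Tconv KO library, 249.5. The log2 fold change was -0.25 ± 0.07 (limma adjusted p = 0.018). The call was lost in a fit of the groups compared alone (adjusted p = 0.094), with reads thinned to 1 depth (0.19) and without Tconv KO replicate 3 (0.064). Without Tconv KO replicate 1 it was kept (-0.27, limma adjusted p = 0.017). In WT cells the same gene differed by -0.11 ± 0.08 (limma adjusted p = 0.39), with overlapping libraries.

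Cpt2, Hadha and Slc25a20 had positive log2 fold changes in both genotypes without passing. Cpt2 had 100.1, 97.0, 79.7 and 102 counts in Treg KO and 71.7, 80.9, 86.7 and 65.6 in Tconv KO. In WT cells it had 83.6, 81.4, 91.3 and 98.4 counts in Treg WT and 66.9, 69.6 and 74.2 in Tconv WT, without overlap. The log2 fold changes of Cpt2 were 0.31 ± 0.12 in KO cells (limma adjusted p = 0.068) and 0.33 ± 0.13 in WT cells (limma adjusted p = 0.11). The first passed when Treg KO replicate 3 (adjusted p = 0.024) or Tconv KO replicate 3 (0.047) was left out and with an estimated correlation of samples with adjacent numbers (0.040), and the second with library weights (0.012) and in a fit of the WT groups alone (0.039).

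Hadha gave 0.09 ± 0.07 in KO cells (limma adjusted p = 0.35) and 0.19 ± 0.08 in WT cells (limma adjusted p = 0.11), and the WT value passed in 3 alternatives with adjusted p from 0.014 to 0.049. Slc25a20 gave 0.22 ± 0.13 and 0.22 ± 0.14 (limma adjusted p = 0.22 and 0.33). Cpt1a, often taken as the gene that stands for this pathway, gave -0.22 ± 0.18 in KO cells and -0.22 ± 0.20 in WT cells (limma adjusted p = 0.38 and 0.51). Acadvl was called in neither, with 0.02 ± 0.09 in KO cells and -0.22 ± 0.09 in WT cells (limma adjusted p = 0.86 and 0.12). With library weights, or with the GC or length trend removed, the WT value of Acadvl passed (adjusted p from 0.0066 to 0.025). Beside these values, CD8 T and NK cell markers summed to 103 to 194 in Treg KO against 662 to 1215 in Tconv KO, and to 119 to 174 in Treg WT against 586 to 696 in Tconv WT. Their part was not tested.

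Cpt1a was the most variable of the 9 genes, with a residual SD of 0.30 on the log2 scale and a 2.03-fold range over the libraries, 474 to 961 normalized read counts. Its scatter was then compared between the 2 cell types. Each Treg library has a Tconv library of the same genotype with the adjacent sample number in 7 cases, although the labels do not say what adjacent numbers share. Cpt1a deviated from its group mean in the same direction in both libraries of 7 of these 7 pairs, and so did Slc25a20, where the mean over all tested genes was 4.02 pairs. This count was made after the values were seen, and the share of all genes that reach 7 pairs was not counted. For Cpt1a the pair numbered 580 and 581 counts with log2 deviations of -0.003 in Treg KO and -0.25 in Tconv KO. In the pair with numbers 574 and 575, Cpt1a had 791 counts in Treg KO and 961 in Tconv KO, the highest of each group. In the pair numbered 578 and 579 it had 474 and 591, the lowest of each group. Hadhb deviated together in 6 pairs, Acadl, Acadm and Hadha in 5 each, Cpt2 in 4, and Acadvl and Acaa2 in 2 each.

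Within the same 7 pairs, Hadha and Slc25a20 were higher in the Treg library in 7 and Acadm and Hadhb lower in 7. Cpt1a and Acaa2 were lower in the Treg library in 6 pairs and Acadvl in 5, while Cpt2 was higher in 6 and Acadl in 5. The same count was not made over all tested genes, so it cannot set the members apart from other genes. With the pairs as a block in limma, an alternative chosen after the values were seen and without the unpaired Treg WT library, Cpt1a passed in KO cells (log2 fold change -0.22 ± 0.07, adjusted p = 0.037), where Hadhb passed too and 37.8% of all genes did. In WT cells the block left Cpt1a at -0.22 ± 0.09 (limma adjusted p = 0.11) and Acadm alone passed of the 9, where 20.7% of all genes did.

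**Figure D4:**
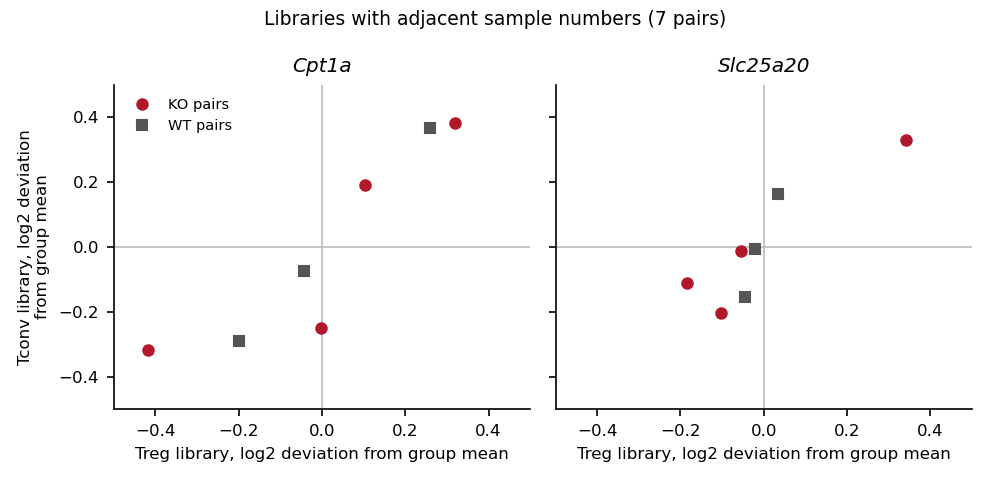
Deviation of each library from its group mean on the log2 scale for Cpt1a and Slc25a20, Treg library on the horizontal axis and the Tconv library with the adjacent sample number on the vertical axis (circles KO, squares WT, 7 pairs). All 7 pairs of both genes lie at the lower left or upper right. For Slc25a20 several lie close to 0, and for Cpt1a the pair numbered 580 and 581 has a Treg deviation of only -0.003.

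Genes with the most similar pattern were sought by the root mean square difference of centred log2 values over the 15 libraries. Closest to Hadhb were Trmt112 (0.09), Erh (0.09) and Eif4a1 (0.10), where the median over all tested genes was 0.35. Erh averaged 168 ± 5.43 in Treg KO and 239.6 ± 5.79 in Treg WT (SD, n = 4 each). Eif4a1, an RNA helicase of translation initiation, averaged 1112 ± 49.4 in Treg KO and 1527 ± 99.2 in Treg WT. Of the other 8 members Acaa2, the other thiolase, was nearest to Hadhb (0.19, position 471 of the tested genes), and Hadha was at 0.30 (position 3885). Closest to Acadm were Pbrm1 (0.11), Ube4a (0.11) and Mef2a (0.12), with a median of 0.36 over all genes. Pbrm1, a subunit of a chromatin remodelling complex, had a mean of 944 ± 36.5 in Treg WT (n = 4) against 1224 ± 96.6 in Tconv WT (n = 3).

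The rest of the pathway was read from 8 lists with 73 tested genes beyond the 9. In Treg KO against Treg WT, 1 of the 73 rose and 9 fell (13.7%, beside 21.5% of all genes). The single rise was Acsl5, which activates long-chain fatty acids to acyl-CoA: 1038 ± 109 in Treg KO and 788 ± 42.1 in Treg WT (log2 fold change 0.39 ± 0.09, limma adjusted p = 0.0094). Slc22a5, the carnitine transporter of the cell membrane, fell in the same list (309 ± 96.1 in Treg KO, 478 ± 114 in Treg WT, log2 fold change -0.65 ± 0.20, limma adjusted p = 0.034), a call lost in 6 of 29 alternatives, and the other 5 tested genes of activation and carnitine did not pass. Of 16 other mitochondrial oxidation enzymes 0 rose and 1 fell, Eci1, an enoyl-CoA isomerase (108 ± 20.9 in Treg KO, 142 ± 12.2 in Treg WT, log2 fold change -0.41 ± 0.14, limma adjusted p = 0.043), a call lost in 15 of 29 alternatives. Of 12 peroxisomal genes 0 rose and 1 fell, the thiolase Acaa1a (197 ± 43.4 in Treg KO, 342 ± 37.2 in Treg WT, log2 fold change -0.81 ± 0.18, limma adjusted p = 0.0070). Acaa1a did not pass with the GC trend removed (-0.42, adjusted p = 0.12).

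Regulators of the pathway gave 4 falls and 0 rises among 15 tested genes (26.7%, beside 21.5% of all genes in either direction). Prkab1, a subunit of the energy sensor AMPK, averaged 288 ± 32.5 in Treg KO and 396 ± 9.43 in Treg WT (log2 fold change -0.46 ± 0.08, limma adjusted p = 0.0022) and passed in all 29 alternatives. Esrra, the orphan receptor ERR alpha, had -0.59 ± 0.17 (adjusted p = 0.021), Ppard, a fatty acid receptor, -0.55 ± 0.16 (0.028) and Stk11, the kinase LKB1 upstream of AMPK, -0.46 ± 0.14 (0.031, all limma). These 3 have GC contents of 61.8%, 59.8% and 59.7%, and with the GC trend removed they had -0.08, -0.13 and -0.05 (adjusted p = 0.67, 0.52 and 0.65). Of 10 genes of uptake, binding and storage, 1 fell, Plin3 (-0.40 ± 0.11, limma adjusted p = 0.019), a coat protein of lipid droplets. That call was lost in 3 of 29 alternatives. Of 7 thioesterases 1 fell, Acot8 (-0.90 ± 0.23, limma adjusted p = 0.013). None of the 3 electron transfer genes or of the 3 genes of malonyl-CoA turnover passed. In Tconv KO against Tconv WT 0 of the 73 passed with limma, where 0.681% of all genes passed, and 3 (4.11%) had an unadjusted p under 0.05, where 12% of all genes had. edgeR called 0 of them and DESeq2 1, the deacetylase Sirt1.

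**Figure D5:**
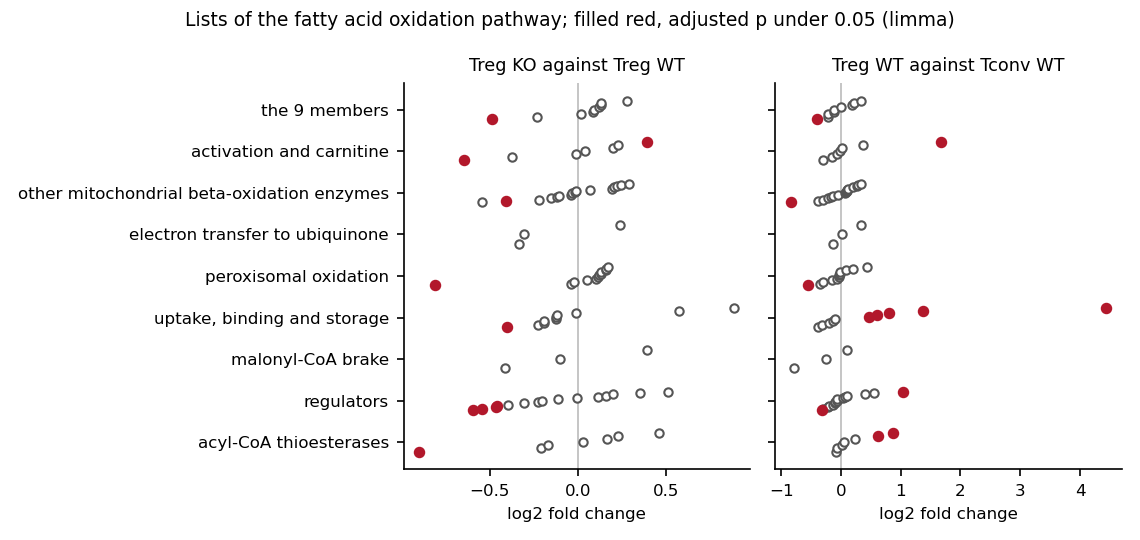
Log2 fold changes of the tested genes of each pathway list, 1 point per gene, in Treg KO against Treg WT (left) and Treg WT against Tconv WT (right; the 2 horizontal axes differ in scale); filled red points passed at adjusted p under 0.05 in limma. On the left 9 of the 10 filled points beyond the 9 members lie below 0. On the right 5 of the 10 tested genes of uptake, binding and storage are filled and above 0. Of the 73 pathway genes 13.7% were called on the left (21.5% of all genes) and 16.4% on the right (18.1% of all genes).

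Between the 2 cell types, genes of lipid uptake and storage were among those called. In WT cells 9 of the 73 genes were higher and 3 lower in Treg WT (16.4%, beside 18.1% of all genes). Of the 10 genes of uptake, binding and storage, 5 were higher and 0 lower: Dgat2, Fabp5, Lipe, Slc27a1 and Dgat1. Fabp5, a fatty acid binding protein, had 41.7 ± 4.35 in Treg WT against 15.5 ± 2.73 in Tconv WT (log2 fold change 1.38 ± 0.28, limma adjusted p = 0.0023). Dgat2, the last enzyme of triglyceride synthesis, had 27.2 ± 6.39 in Treg WT against 0.351 ± 0.608 in Tconv WT, a level too close to 0 for a fold. The calls of Lipe, a hormone-sensitive lipase, Slc27a1, a fatty acid transport protein, and Dgat1 were lost with reads thinned to 1 depth (adjusted p = 0.17, 0.093 and 0.26).

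Slc22a5 was also higher in Treg WT, with 478 ± 114 against 146 ± 5.27 in Tconv WT (log2 fold change 1.67 ± 0.22, limma adjusted p = 5.4e-05). Of the thioesterases, Acot7 (0.87 ± 0.25, limma adjusted p = 0.024) and Acot9 (0.63 ± 0.16, limma adjusted p = 0.012) were higher. Of the regulators Myc (1.04 ± 0.19, limma adjusted p = 0.0011) was higher and Prkag1 (-0.31 ± 0.08, limma adjusted p = 0.014) lower. The call of Acot7 was lost in 6 of 29 alternatives, that of Acot9 in 2 and that of Prkag1 in 1. Among the enzymes Pccb, of propionyl-CoA carboxylase (-0.83 ± 0.18, limma adjusted p = 0.0045), and Scp2, a peroxisomal thiolase and lipid carrier (-0.55 ± 0.14, limma adjusted p = 0.012), were lower in Treg WT. In KO cells 9 of the 73 were higher and 11 lower in Treg KO (27.4%, beside 31.4% of all). Among the higher genes again were Slc22a5 (309 ± 96.1 in Treg KO, 148 ± 13.1 in Tconv KO, limma adjusted p = 0.0014) and Fabp5 (65.2 ± 22.1 in Treg KO, 13.6 ± 5.01 in Tconv KO, limma adjusted p = 1.4e-05). The list of uptake, binding and storage went both ways in KO cells. Of its 10 tested genes 3 were higher in Treg KO (Fabp5, Dgat2 and Lipe) and 3 lower (Slc27a4, Plin3 and Lipa).

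Of the 3 forms of carnitine palmitoyltransferase 1, Cpt1a stood at 154 normalized read counts per kb, against 1.21 for the muscle form Cpt1b and 2.14 for the brain form Cpt1c. Their reads in the 15 libraries numbered 11032, 75 and 86. Neither Cpt1b nor Cpt1c passed the filter on low values. The receptors Ppara and Pparg and the coactivator Ppargc1a, which drive genes of fatty acid metabolism in liver, fat and muscle, had 3, 47 and 12 reads in all libraries together. Within the dehydrogenase family, Acads, the short-chain enzyme, stood at 115 normalized read counts per kb and Acad9 at 64.2, beside 208, 150 and 119 for Acadvl, Acadl and Acadm.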

How the data were processed

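Libraries were made from sorted splenic cells with a TruSeq RNA kit and 10 ng of RNA each, per the labels' protocols. The submitters' processing notes name TopHat and the build mm10, without versions, and the method of counting, its strand setting and the annotation were not found in the labels. Each deposited value is a normalized signal: the authors' count for a gene over 1 size factor per library. All values (100%) were whole multiples of 1 step within 0.001, which gave the reads and the depths. Values were fitted as log2(value + 1) in limma 3.58.1 (R 4.3.3) with 4 group means over 15 libraries and a trend on mean level, for genes at 10 or more in at least 3 libraries, two-sided, with Benjamini-Hochberg adjustment over 11314 genes in each of 5 contrasts; fold changes are on that scale and given ± SE. The fit was tested on simulated data. Replicates were numbered in accession order. Alternatives were edgeR 4.0.16 and DESeq2 1.42.0 on the recovered reads, other pseudocounts, filters, scalings and trends, and each library left out; a block for pairs of adjacent sample numbers was added after the data were seen. Lengths, GC contents and positions came from GENCODE vM21 (17345 of 17594 symbols matched, 694 as older symbols). The members, lists and tests were chosen with earlier results of these data known. All 9 members were tested in every comparison, but not every value is given. Called pathway genes are named in Treg KO against Treg WT and in Treg WT against Tconv WT, and only in part in Treg KO against Tconv KO. For each called member the 3 genes of nearest pattern are named. The totals of reads given are limited by counting error, by the unstated method of counting and by taking the step of each library as 1 read.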

Additional observations from a re-analysis of the deposited data

Results flagged for a closer look

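One library value was flagged among the 27 groups of 4 libraries examined (9 genes in 3 groups). Hadhb in Tconv KO replicate 3 was 298 normalized read counts, away from 249.5 to 258 in the other 3 Tconv KO libraries: its gap to the nearest was 0.834 of the range of the group, just above the 95% critical value of Dixon's test for 4 samples. Chance flags about 1 in 20 groups. The same library holds the highest Acadm value of the 15, 317, and the second-lowest depth, 2.95 mega-reads. Without it Hadhb in Tconv KO against Tconv WT had a log2 fold change of -0.41 (limma adjusted p = 0.023), and in Treg KO against Tconv KO -0.19 (limma adjusted p = 0.064).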

How the results depend on the processing

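Of the 9 members, Hadhb in Treg KO against Treg WT was called in 29 of 29 alternatives; no called value of a member changed sign. Without 1 library the number called in this comparison was 1 to 2. In Tconv KO against Tconv WT it was 1 with edgeR, DESeq2, library weights and the GC trend removed, and 0 to 1 without 1 library. In Treg KO against Tconv KO it was 0 with only the groups compared and with thinned reads, 2 with the estimated correlation of adjacent numbers and with the GC trend removed, and 1 to 3 without 1 library (3 without Treg KO replicate 3). In Treg WT against Tconv WT it was 0 with no filter and with thinned reads, 2 with the estimated correlation, the GC or the length trend removed, 3 with only the groups compared and 4 with library weights, and 0 to 1 without 1 library.

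Of the 73 other pathway genes, Treg KO against Treg WT called 10, but 5 with only the groups compared and 5 to 12 without 1 library. Tconv KO against Tconv WT called 1 with DESeq2 and with library weights, and 0 to 2 without 1 library. Treg KO against Tconv KO called 20, but 11 with only the groups compared and 32 with the estimated correlation, and 14 to 25 without 1 library. Treg WT against Tconv WT called 12, but 26 with only the groups compared and with library weights, and 7 to 16 without 1 library. Of the pathway calls, 3 of 10 in Treg KO against Treg WT, 10 of 20 in Treg KO against Tconv KO and 6 of 12 in Treg WT against Tconv WT held in every alternative run. The cause was not tested. The labels give no replicate number that groups share. With the 7 pairs of adjacent sample numbers as a replicate block, added after the data were seen, 2 members were called in Treg KO against Tconv KO (Cpt1a and Hadhb) and the number in Treg WT against Tconv WT stayed at 1; of the pathway genes 29 and 16 were called, and Mlycd and Nrf1 in KO cells were no longer called (adjusted p = 0.050 and 0.051). The estimated correlation of adjacent numbers was 0.248. Depth limits Cpt2 most, with 37 to 157 reads per library.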
